A study of Drosophila melanogaster with 9 samples.

Results

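Non-delaminating posterior cells of the Drosophila wing imaginal disc were compared with anterior cells of discs of the same genotype. The comparison used 6 of the 9 arrays of the study, 3 posterior and 3 anterior, each array a separate biological replicate per the labels, and it covered 11982 genes. The 3 arrays of delaminating cells entered the fit for its estimate of spread, and their values are given only beside genes described here. All larvae had the w1118 background, were about 8 days old and carried the en-gal4 driver with UAS-RFP, p35, a dsRNA against asp and an MMP1-GFP reporter. The posterior population was RFP-positive and GFP-negative, the anterior population was negative for both, and the delaminating population was positive for both. Discs were dissociated with trypsin and sorted by FACS, and the RNA was amplified as cDNA before labelling. The driver follows engrailed, so the transgenes were made in the RFP-positive cells, called posterior here. The RFP-negative cells, called anterior, carried them without visible driver activity. Whether each gate held cells of a single compartment was not tested. The sort therefore set compartment identity and transgene expression together, and the design cannot tell them apart. The anterior gate took any disc cell without fluorescence, whether epithelial or not. The genes asp and Mmp1, which would check the knockdown and the reporter gate, were not analysed here.

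The wing disc is an epithelium split into an anterior and a posterior compartment. Posterior cells make the homeodomain proteins Engrailed and Invected, secrete the signal Hedgehog and keep the transcription factor gene ci silent, and anterior cells make Ci and answer to Hedgehog. Under the future notum lie adult muscle precursors, mesodermal cells that make Twist and the FGF receptor Heartless and that Notch signalling keeps undifferentiated. Hemocytes, tracheal cells and nerve cells also touch the disc. Loss of Asp, a spindle pole protein, disturbs chromosome segregation, and p35 is a baculovirus protein that blocks effector caspases.

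Each value below is a log2 signal as normalized by the authors with RMA, where 1 unit is a doubling, and a difference is posterior minus anterior unless stated. The value of 1 probe set cannot be set against that of another as an amount of RNA. Array medians lay between 7.47 and 7.55 and lower quartiles between 6.01 and 6.34. A group mean below the lower quartiles is taken as dim, and no fold is then given. Anterior array 3 stood apart. It correlated with the other 8 arrays at 0.889 to 0.915, while those 8 correlated with each other at 0.943 to 0.987. The median difference over all genes was 0.09, with 60.6% of genes above 0, and it was 0.01 without that array. Genes were called at a limma adjusted p under 0.05. In bulk RNA, fewer cells of a type and less RNA per cell cannot be told apart.

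Far more genes were called lower in posterior cells than higher. Of the 11982 genes, 58 were lower (0.484% of those tested) and 11 were higher (0.0918%), or 0.576% in both directions. In all 69 the posterior and anterior values did not overlap, as they did not in 18.4% of all genes (11.9% with posterior higher and 6.47% with posterior lower). Of the 69, 32 stayed called whichever of the 9 arrays was left out. The number called, however, ran from 35 without posterior array 1 to 88 without anterior array 3. It was also reduced to 37 without posterior array 2 and to 38 without anterior array 2. The excess of lower genes was smaller without anterior array 1, with 31 higher and 56 lower, and with array weights in limma, with 195 higher (1.63%) and 232 lower (1.94%).

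The compartment genes differed as the gates were labelled. The selector gene en, which gives posterior cells their identity, lay at 7.10, 6.88 and 7.49 in anterior arrays 1 to 3 and at 10.45, 10.64 and 10.53 in posterior arrays 1 to 3. It was 10.4-fold higher in posterior cells (log2 difference 3.38, SE 0.27, adjusted p = 0.000288). Its neighbour and paralog inv lay at 7.83, 7.80 and 7.26 against 9.73, 9.54 and 9.67, a 4.05-fold difference (log2 2.02, SE 0.21, adjusted p = 0.00165). The Hedgehog ligand gene hh lay at 7.30, 6.72 and 7.01 against 9.13, 9.20 and 9.0, a 4.27-fold difference (log2 2.10, SE 0.22, adjusted p = 0.00152). For all 3 genes every posterior array lay above every anterior array, and the call held with each array left out. In delaminating arrays en lay at 10.24, 11.03 and 10.01, on both sides of the posterior values.

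Among 15 measured anterior or boundary genes of the Hedgehog pathway, of 19 listed, 1 was called lower and 1 higher, and the median difference was 0.10. The gene ci, which encodes the pathway's transcription factor, lay at 10.17, 10.12 and 9.62 in anterior arrays and at 8.32, 8.36 and 8.32 in posterior arrays. It was 3.12-fold lower in posterior cells (log2 difference -1.64, SE 0.18, adjusted p = 0.00239), and no array decided the call. The Hedgehog receptor gene ptc, which is also a target of the pathway, lay at 12.02, 12.01 and 11.92 against 11.71, 11.43 and 11.63. Its groups did not overlap, but the difference of -0.40 was not called (adjusted p = 0.531). The BMP ligand gene dpp, which Hedgehog switches on along the boundary, lay at 9.0, 8.63 and 6.62 against 8.22, 8.31 and 8.01, so its groups overlapped and anterior array 3 held the lowest value.

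**Figure D1:**
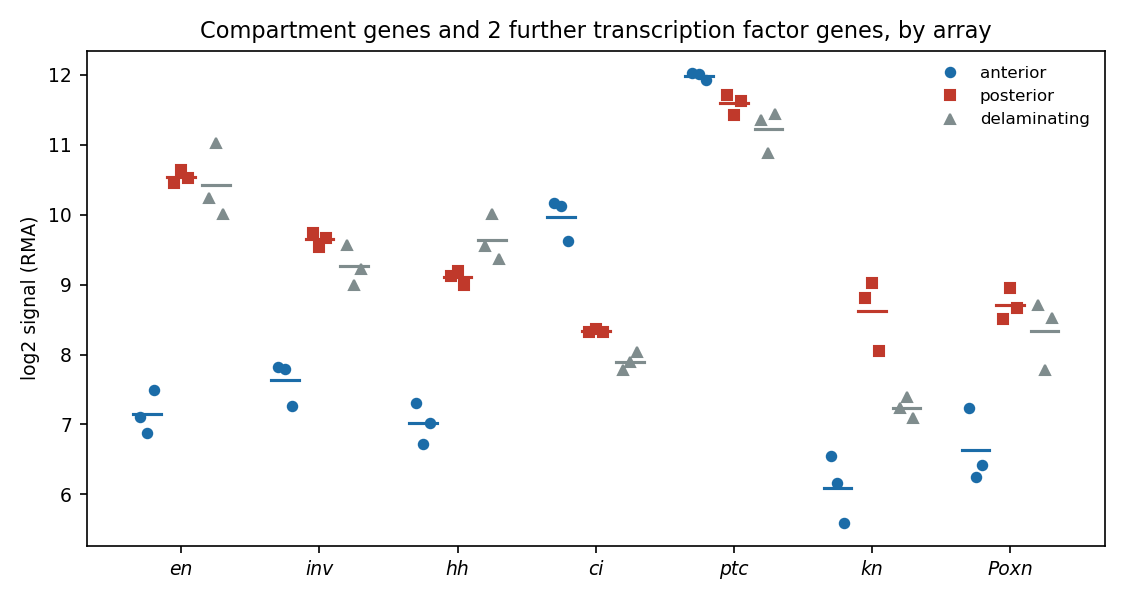
Log2 signal of en, inv, hh, ci, ptc, kn and Poxn in each of the 9 arrays, with 1 point per array and the group mean as a bar. The posterior points of en, inv and hh lie above all anterior points, those of ci lie below, and kn and Poxn are higher in posterior than in anterior arrays.

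The other called gene of that list, kn, went against the place for which it is known. It encodes the transcription factor Collier (Knot), which Hedgehog induces in anterior cells beside the boundary. Its signal was 6.55, 6.16 and 5.59 in anterior arrays and 8.81, 9.02 and 8.05 in posterior arrays. Every posterior array was above every anterior array (log2 difference 2.53, SE 0.30, adjusted p = 0.00337), and the call held with each array left out. No fold is given because the anterior mean was near the lower quartile. Delaminating arrays lay between the other groups at 7.23, 7.40 and 7.09. A second kn probe set stayed at 5.0 to 5.25 on all arrays and differed by -0.09, so the 2 probe sets disagree. Optix, a homeobox gene known from the anterior wing pouch, was called lower and was named after its values were seen. It lay at 7.09, 6.88 and 6.23 in anterior arrays against 4.60, 4.58 and 4.58 in posterior arrays, where it was dim (log2 difference -2.15, SE 0.22, adjusted p = 0.00129).

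The largest differences of the comparison were in genes of adult muscle precursors, which were low in posterior cells. Of 32 listed genes 26 were measured, 8 were called lower and none higher, and 21 lay below 0. Over all genes, 0.484% were called lower, and 4713 of 11982 lay below 0. The median difference of the list was -0.43, against 0.09 over all genes, and it was -0.62 without anterior array 3. The list was drawn up with earlier results of these data known, so its count describes the samples and is no separate evidence for them.

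The FGF receptor gene htl, needed for these cells to respond to FGF from the notum epithelium, lay at 8.94, 9.17 and 8.99 in anterior arrays and at 3.96, 4.85 and 4.80 in posterior arrays (log2 difference -4.50, SE 0.24, adjusted p = 5.27e-05). The posterior level was dim. The gene Him, whose product holds back muscle differentiation, lay at 11.85, 12.16 and 11.83 against 6.87, 7.97 and 7.93, a 20.5-fold difference (log2 -4.36, SE 0.33, adjusted p = 0.000221). The mesodermal transcription factor gene twi lay at 11.50, 11.91 and 12.08 against 7.19, 7.68 and 7.79 and was 19.4-fold lower (log2 -4.27, SE 0.31, adjusted p = 0.000185). For these 3 genes the groups were separated by more than 3 log2 units, and no array decided the call. They were low in the delaminating arrays too, where htl lay at 3.82, 3.78 and 4.04 and twi at 7.56, 6.40 and 6.66.

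The Bearded family gene E(spl)m6-BFM lay at 11.75, 12.26 and 12.08 in anterior arrays and at 7.85, 8.79 and 8.42 in posterior arrays, 12.8-fold lower (log2 -3.68, SE 0.31, adjusted p = 0.000473). The Sox family gene Sox100B lay at 7.64, 7.13 and 6.96 against 3.85, 3.80 and 3.79, where it was dim (log2 difference -3.43, SE 0.19, adjusted p = 5.27e-05). The gene beat-IIIc, of the Beaten path family of immunoglobulin proteins, lay at 10.34, 10.60 and 10.75 against 7.27, 7.46 and 8.05, a 7.83-fold difference (log2 -2.97, SE 0.27, adjusted p = 0.000777). Both beat-IIIc probe sets were lower, by -2.97 and -3.43. The calls of these 3 genes held with each array left out.

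The remaining called members depended on single arrays. The repressor gene zfh1 lay at 10.30, 10.80 and 10.38 in anterior arrays and at 6.27, 7.42 and 6.29 in posterior arrays, a 14.2-fold difference (log2 -3.83, SE 0.55, adjusted p = 0.0124). Its adjusted p was 0.0679 without anterior array 2, 0.0793 without posterior array 1 and 0.0679 without posterior array 3. Delaminating arrays held zfh1 at 7.26, 9.47 and 7.37, with array 2 high. The homeobox gene ct, active in flight muscle precursors and in sensory organs, lay at 9.01, 9.38 and 9.65 against 7.66, 7.05 and 7.77, a 3.61-fold difference (log2 -1.85, SE 0.32, adjusted p = 0.0365). The ct call held only without anterior array 1 or without delaminating arrays 2 or 3, with an adjusted p reaching 0.191 in the other 6 of the 9 fits that left out an array. Its 3 probe sets differed by -1.16 to -1.85.

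**Figure D2:**
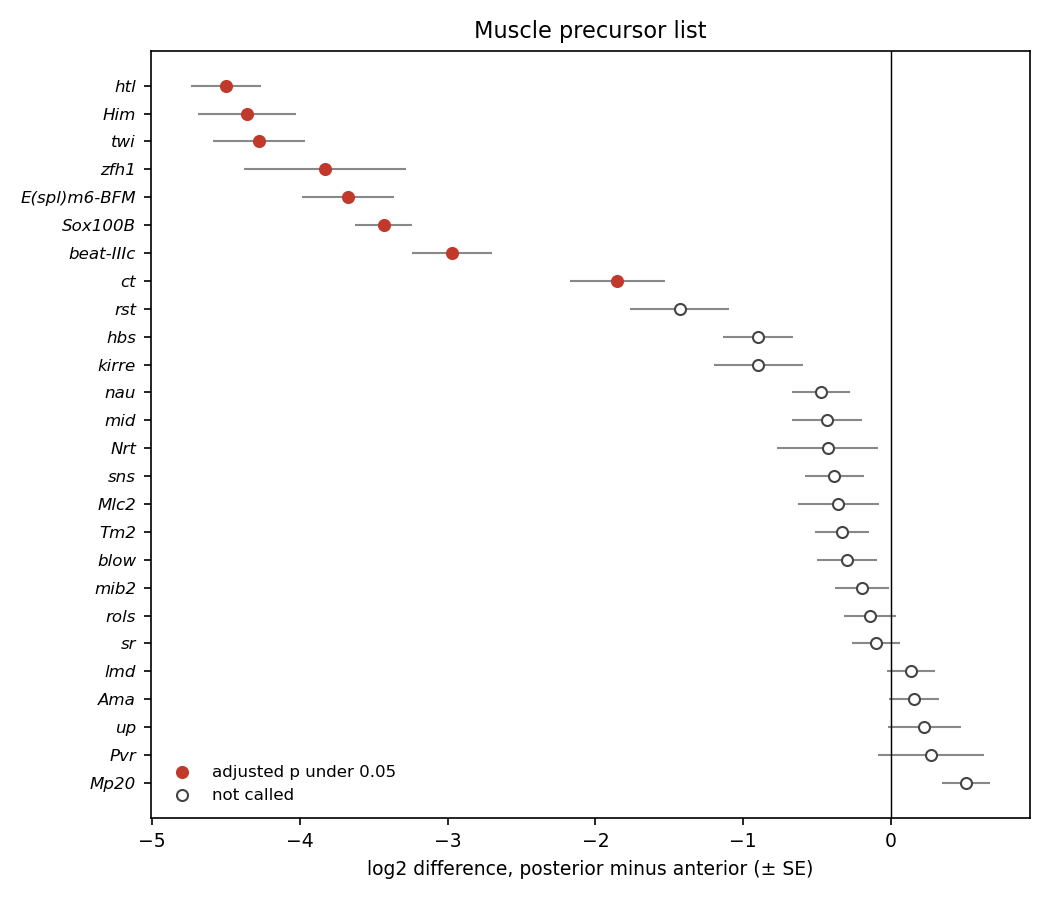
Log2 difference, posterior minus anterior, with its standard error as a bar, for the 26 measured adult muscle precursor genes, with called genes in red. The 8 called genes all lie below 0, from htl at -4.50 to ct at -1.85, and Mp20 has the highest difference at 0.51.

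The other 18 members were not called, although array weights called 13 of the list lower and 1 higher. Over all genes, array weights called 1.94% lower and 1.63% higher. The myoblast fusion receptor gene rst lay at 10.13, 10.18 and 9.83 against 8.35, 8.93 and 8.58 (log2 difference -1.43, adjusted p = 0.144). Its partner gene hbs lay at 11.69, 11.94 and 11.72 against 10.82, 10.91 and 10.92 (log2 difference -0.90, adjusted p = 0.211). In both genes the groups did not overlap. Another fusion receptor gene, kirre, differed by -0.90 with overlapping groups. Genes of later muscle differentiation were near 0 or varied in sign, with Mp20, a muscle-specific calponin family gene, at 0.51, the troponin T gene up at 0.22, the tropomyosin gene Tm2 at -0.33 and Mlc2, a myosin light chain gene, at -0.36. The myogenic factor gene nau was dim in both groups.

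FGF genes were measured for the ligands and receptors of both fly FGF systems. Of 5 measured genes, htl and ths were called lower. The Heartless ligand gene ths, which the notum epithelium is known to make, lay at 8.98, 9.31 and 8.45 in anterior arrays and at 7.46, 7.30 and 7.47 in posterior arrays, 2.83-fold lower (log2 -1.50, SE 0.26, adjusted p = 0.0353). That call was lost in 6 of the 9 fits without 1 array, where its adjusted p reached 0.192, and held without anterior array 3 or delaminating arrays 2 or 3. The second Heartless ligand gene pyr differed by -0.09, the receptor gene btl by -0.10 and its ligand gene bnl by 0.24, and none was called.

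Some called genes were neighbours on the chromosomes. In the RefSeq gene order, 22 of the 69 fell into 8 runs of called genes with at most 2 other tested genes between them, and the others did not. The longest run, on arm 2L, held 6 consecutive tested genes, CG34169, Gr36a, Gr36b, Gr36c, Grl36a and beat-IIIc, all lower in posterior cells and all called with each array left out. The Gr36 genes belong to the gustatory receptor family and Grl36a is related to it. Their posterior means were dim, and their anterior values were modest. Gr36c, for example, lay at 7.33, 7.34 and 7.19 in anterior arrays and at 4.91, 4.94 and 5.02 in posterior arrays (log2 difference -2.33, SE 0.16, adjusted p = 0.00017). CG34169 lay at 8.25, 7.63 and 8.18 against 5.18, 5.24 and 4.99 (log2 difference -2.89, SE 0.21, adjusted p = 0.000196). The genes next to the run, beat-IIIa at -0.22 and CG15140 at -1.02, were not called. Cross-hybridization among the related Gr36 probe sets was not tested.

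Another run, on the X chromosome, joined Him to its neighbours Hesr and CG33639. Hesr, a Hairy-related repressor gene also known as Her, lay at 8.18, 9.47 and 8.74 in anterior arrays and at 5.08, 5.67 and 6.80 in posterior arrays (log2 difference -2.95, SE 0.48, adjusted p = 0.0266). Its posterior mean was dim. Its call was lost in 6 of the 9 fits without 1 array, where its adjusted p reached 0.145, and held without anterior array 1, delaminating array 1 or posterior array 3. On arm 3R Sox100B lay beside CG11317, at -1.80, and E(spl)m6-BFM beside E(spl)m5-HLH. On arm 3L the run of CG12768 and Mes2, at -1.79 and -2.12, was followed by CG32461 at -2.65, CG32457 at -2.02 and nrm at -1.23, which were not called. CG11317, CG12768 and Mes2 were dim in posterior cells. Arm 3R also held CG4459 beside Hs6st, and arm 2R held CG9899, CG13545 and CG13539. The pair inv and en, also on 2R, was the only run that was higher in posterior cells.

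**Figure D3:**
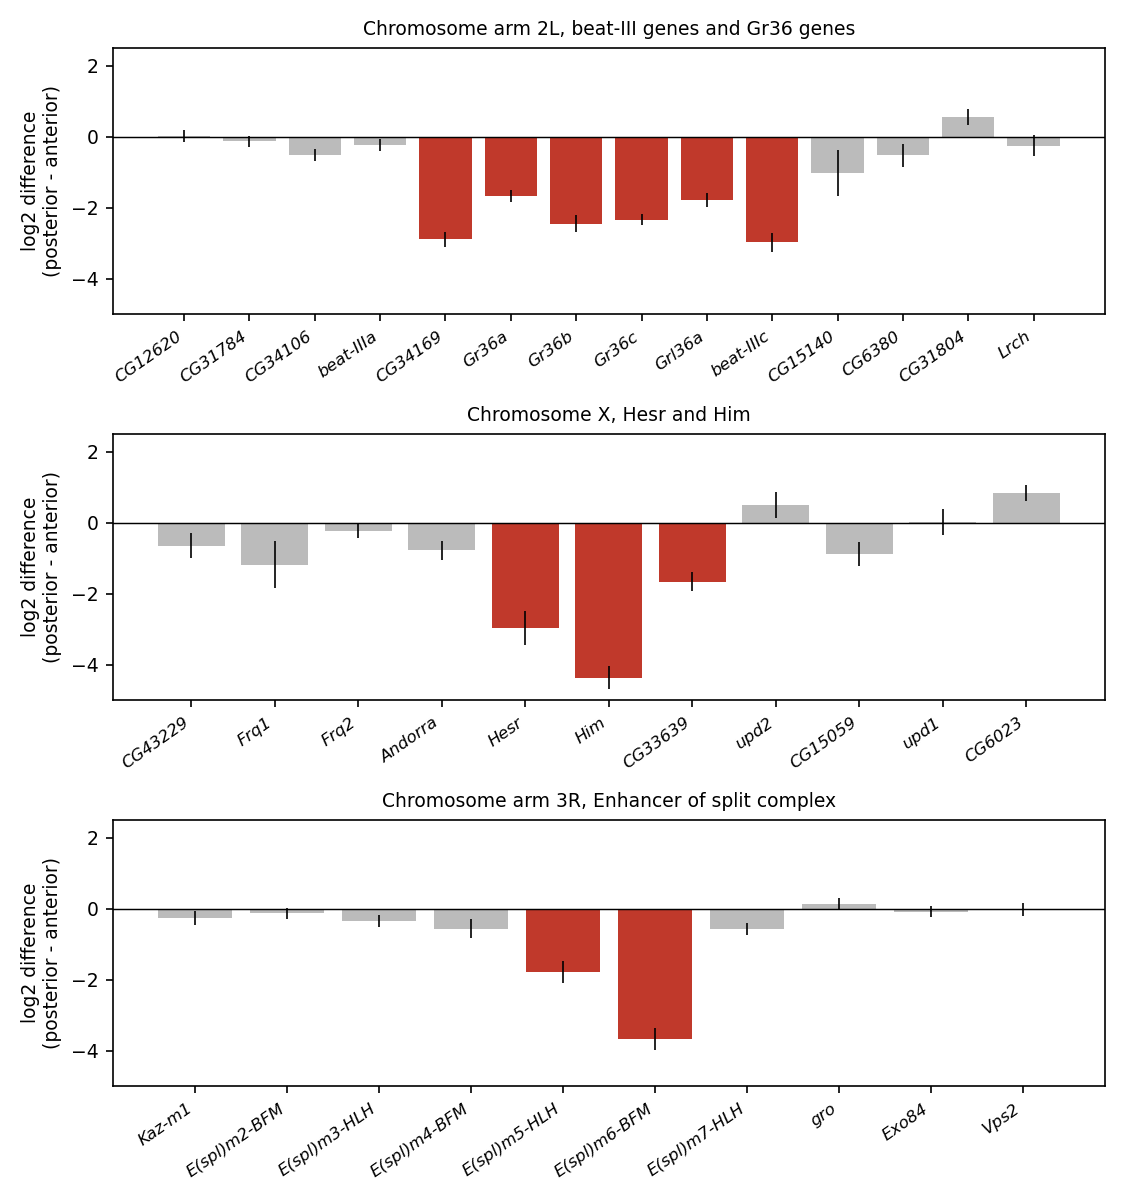
Log2 difference, posterior minus anterior, with its standard error as a line, for tested genes in their chromosomal order around the Gr36 genes on arm 2L, Him on the X chromosome and the E(spl) complex on arm 3R, with called genes in red. The 6 genes from CG34169 to beat-IIIc on arm 2L lie between -2.97 and -1.67, while the next gene on each side lies at -0.22 and -1.02.

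Among the E(spl) and Bearded genes, listed together for their ties to Notch signalling, more members were lower than higher. Of 15 listed genes 13 were measured, 2 were called lower and 1 higher, with a median of -0.32. In 7 the groups did not overlap with posterior lower, against 6.47% of all genes, and in 2 with posterior higher, against 11.9%. At an unadjusted p under 0.05, 4 were lower, where 3.61% of all genes were, and array weights also called 4 lower. Beside E(spl)m6-BFM, the repressor gene E(spl)m5-HLH lay at 8.80, 9.13 and 8.88 in anterior arrays and at 6.56, 7.04 and 7.87 in posterior arrays, 3.43-fold lower (log2 -1.78, SE 0.30, adjusted p = 0.0327). This call held only without posterior array 3 and was lost in 8 of the 9 fits without 1 array, where its adjusted p reached 0.177. The repressor gene E(spl)mbeta-HLH overlapped between the groups, at 12.98, 12.97 and 12.91 against 12.94, 13.05 and 13.03. E(spl)m7-HLH differed by -0.58 and E(spl)malpha-BFM by -0.53 without a call, although in both the groups did not overlap. Tom, a Bearded family gene, was higher, at 10.42, 10.33 and 9.87 against 11.20, 11.28 and 11.25 (log2 difference 1.03, 2.05-fold, adjusted p = 0.0345), and that call was lost in 7 of the 9 fits, reaching 0.187, and held only without anterior arrays 1 or 3. Of 17 other genes listed with the Notch pathway 11 were measured, of which only ct was called, and their median was 0.11. The Notch receptor gene and its ligand genes Dl and Ser were not among the 11. Of 14 proneural and sensory organ genes ct was called lower and Poxn higher, with a median of -0.02.

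Genes of the basement membrane, the sheet of matrix under the epithelium, were lower in posterior cells at several components. Of 15 measured genes 4 were called lower, where 0.484% of all genes were, and none higher, with a median of -0.40. The perlecan gene trol, which encodes a heparan sulfate proteoglycan, lay at 12.62, 12.70 and 12.83 in anterior arrays and at 10.49, 10.59 and 10.82 in posterior arrays, 4.23-fold lower (log2 -2.08, SE 0.18, adjusted p = 0.000561). It was called with each array left out. Its 8 probe sets differed by -3.10 to 0.26, and 5 of them were called in a fit of all probe sets, where 0.687% of probe sets were called.

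The collagen-binding protein gene SPARC lay at 11.88, 12.15 and 12.48 against 8.90, 9.40 and 8.82, an 8.75-fold difference (log2 -3.13, SE 0.44, adjusted p = 0.011). The collagen IV gene vkg lay at 11.63, 11.92 and 11.97 against 8.87, 9.52 and 8.99, a 6.58-fold difference (log2 -2.72, SE 0.43, adjusted p = 0.0243). The other collagen IV gene, Col4a1, lay at 12.65, 12.88 and 12.94 against 10.02, 10.66 and 10.26, and its difference of -2.52 was not called (adjusted p = 0.0638). All 3 genes were separated between the groups, but the calls of SPARC and vkg turned on single arrays. SPARC had an adjusted p of 0.0528 without anterior array 2, 0.0743 without posterior array 1 and 0.0625 without posterior array 3. For vkg the adjusted p was 0.102, 0.0606, 0.126, 0.0673 and 0.118 without anterior arrays 2 and 3 and posterior arrays 1, 2 and 3. Delaminating array 2 was high in all 3 genes. It held SPARC at 11.12 beside 9.32 and 9.30, vkg at 11.14 beside 9.44 and 9.24, and Col4a1 at 12.52 beside 10.92 and 10.16. The delaminating arrays entered the estimate of spread for this comparison. Mp, the collagen XV/XVIII gene, was called at -1.13 (2.19-fold, adjusted p = 0.0213). This call was lost without anterior array 2 or posterior arrays 1 or 2, where its adjusted p reached 0.118. The second Mp probe set differed by -0.57 without a call. With the mean of both probe sets, the limma adjusted p of Mp was 0.143. The laminin genes LanA, LanB1 and LanB2 differed by -0.43, -0.40 and -0.19 and were not called.

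Hemocytes, the blood cells of the fly, are known to make collagen IV and SPARC, so their markers are given beside these genes. Of 17 measured hemocyte genes only vkg was called, 9 lay below 0 and the median was -0.10. Array weights called 3 lower and none higher, where 1.94% and 1.63% of all genes were. Several blood cell markers had lower posterior means without a call, with differences of -1.49 for Hml, -1.29 for NimB4, -1.19 for Pxn, -1.13 for He and -0.82 for srp. Others had higher ones, with 0.97 for crq, 0.71 for Sr-CI and 0.52 for eater, and NimC1 differed by 0.03. Of these markers, srp was dim in both groups and crq was dim in anterior cells. The hemolectin gene Hml lay at 8.06, 9.51 and 6.95 in anterior arrays, at 6.98, 8.32 and 4.74 in posterior arrays and at 8.44, 10.39 and 7.52 in delaminating arrays. The peroxidasin gene Pxn lay at 9.86, 10.99 and 9.43 against 8.80, 9.52 and 8.37. Array 2 was the highest in each group for both genes. The mean over the 15 hemocyte genes other than the collagens was 7.60, 8.22 and 7.38 in anterior arrays, 7.61, 7.96 and 6.98 in posterior arrays and 7.87, 9.72 and 7.80 in delaminating arrays. The part of hemocytes in the matrix differences was not tested. With anterior array 3 and posterior array 2 left out together, a choice made after the data were seen, 1 of the 4 matrix calls was kept, and 47 genes were called in all.

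**Figure D4:**
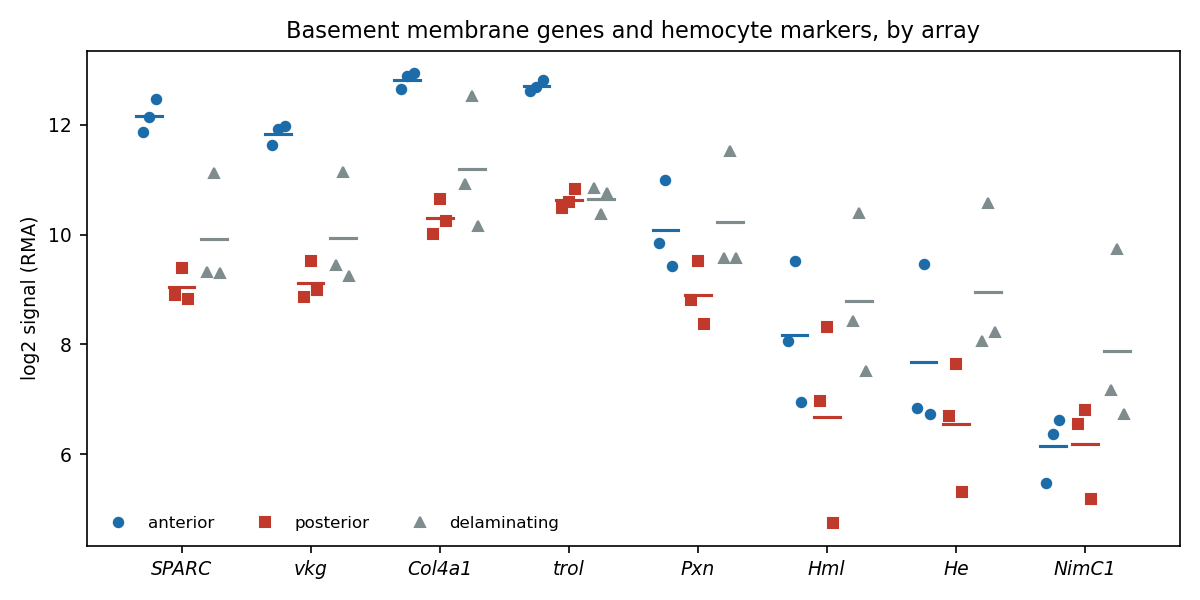
Log2 signal of 4 matrix genes and of Pxn, Hml, He and NimC1, which mark hemocytes, in each of the 9 arrays, with 1 point per array and the group mean as a bar. The anterior points of SPARC, vkg, Col4a1 and trol lie above all posterior points, whereas Hml and Pxn overlap between anterior and posterior arrays and array 2 is highest in each group for both.

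Genes listed for the notum and body wall differed in both directions, with 15 above 0 and 14 below. The list also held genes with other roles, such as the signalling genes upd1, upd2 and Stat92E, so its counts are not those of notum patterning alone. Of 29 measured genes 1 was called lower, and the median was 0.01, or -0.20 without anterior array 3. Array weights called 5 lower and 1 higher, where 1.94% and 1.63% of all genes were. The gene called in the main fit was tsh, a zinc finger gene of the trunk and proximal disc. It lay at 11.44, 11.50 and 11.56 in anterior arrays and 10.55, 10.42 and 10.39 in posterior arrays (log2 difference -1.04, 2.06-fold, SE 0.17, adjusted p = 0.0319). The call was lost in 6 of the 9 fits without 1 array, where its adjusted p reached 0.177, and held without anterior array 3 or delaminating arrays 1 or 2. Delaminating arrays were lower still in level, at 9.04, 9.57 and 9.43. The notum gene eyg differed by -1.20 and the Iroquois gene mirr by 1.05, and neither was called.

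Of 24 measured genes of the wing pouch and hinge, 2 were called higher, where 0.0918% of all genes were, and none lower. In this list 21 lay above 0, as did 60.6% of all genes. At an unadjusted p under 0.05, 10 were higher and 1 lower, where 5.98% and 3.61% of all genes were. Array weights called 6 higher and 1 lower, where 1.63% and 1.94% of all genes were. The median was 0.42, but 0.10 without anterior array 3, which had the lowest mean over this list at 8.77, beside 9.52 and 9.33 in the other anterior arrays. Besides kn, the paired-box gene Poxn, which acts in the hinge and in chemosensory organs, lay at 7.24, 6.25 and 6.42 against 8.51, 8.95 and 8.67, a 4.21-fold difference (log2 2.08, SE 0.31, adjusted p = 0.0168). Its adjusted p was 0.0822 without anterior array 2 and 0.0651, 0.104 and 0.0702 without posterior arrays 1, 2 and 3. The wing selector gene vg lay at 11.39, 11.34 and 11.20 against 11.44, 11.28 and 11.33, so its groups overlapped. The homeobox gene al lay at 10.01, 9.88 and 9.57 against 8.77, 8.41 and 8.63 without a call (log2 difference -1.22, adjusted p = 0.0927).

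The lists of cell death, stress, spindle and replication genes gave 1 call, and that was a lower gene. Of 15 measured genes of cell death and p53 function, only egr was called, and the median was 0.07. egr, which encodes the TNF ligand Eiger, lay at 10.09, 10.30 and 10.31 in anterior arrays and at 8.41, 9.06 and 9.21 in posterior arrays, 2.53-fold lower (log2 -1.34, SE 0.23, adjusted p = 0.0345). This call was lost with every array left out except posterior array 3, and its adjusted p reached 0.141. Its second probe set differed by -1.18, and delaminating arrays lay at 9.40, 9.34 and 9.74. The Eiger receptor gene grnd lay at 8.50, 8.63 and 7.65 against 9.04, 9.40 and 9.05, a difference of 0.90 that was not called (adjusted p = 0.263). The caspase gene Dcp-1 differed by 0.06 and p53 by -0.28.

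JNK targets and damage signals, which errors of chromosome segregation are known to switch on, gave no call among 18 measured genes. The posterior gate left out cells with the MMP1-GFP reporter on, so these counts do not describe all RFP-positive cells. At an unadjusted p under 0.05, 2 were higher, where 5.98% of all genes were, and none was lower. With array weights in limma, 1 was called higher, where 1.63% of all genes were higher and 1.94% lower. The list's mean was 9.35, 9.12 and 8.70 in anterior arrays, 9.22, 9.47 and 9.42 in posterior arrays and 10.44, 10.61 and 10.55 in delaminating arrays, and anterior and posterior arrays overlapped. The median difference was 0.31, and 0.19 without anterior array 3. The relaxin-like gene Ilp8, which delays growth after damage, lay at 10.77, 8.88 and 7.64 in anterior arrays, 9.86, 10.71 and 10.51 in posterior arrays and 12.38, 12.23 and 12.26 in delaminating arrays. Its anterior values were spread over more than 3 log2 units, and the difference of 1.27 had an adjusted p of 0.542. The JNK phosphatase gene puc differed by 0.20 and the stress response gene Gadd45 by 0.83.

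None of 28 oxidative stress genes was called, and 25 lay above 0, as did 60.6% of all genes. The list's median was 0.26, and 0.23 without anterior array 3. At an unadjusted p under 0.05, 5 were higher and none lower, and 3 were called higher with array weights. Over all genes, 5.98% were higher and 3.61% lower at that p, and 1.63% were called higher with array weights. The glutathione transferase gene GstE6 lay at 7.83, 7.03 and 6.20 in anterior arrays and at 8.43, 8.37 and 8.94 in posterior arrays, separated but not called (log2 difference 1.56, adjusted p = 0.127). GstE7 differed by 1.02 and GstE9 by 0.81, also with separated groups and no call. In 12 of the 28 genes the groups did not overlap with posterior higher, against 11.9% of all genes. In none did they separate with posterior lower, against 6.47%. Of 10 heat shock and protein damage genes none was called, 1 was higher at an unadjusted p under 0.05, 1 was called higher with array weights, and the median was 0.15.

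Genes of the spindle and its checkpoint, the process that asp serves, gave no call among 30 measured, none at an unadjusted p under 0.05 and none with array weights. Their differences ran from -0.42 to 0.56. The median of 0.28 fell to 0.04 without anterior array 3, whose mean over the list was 9.10 beside 9.75 and 9.69 in the other anterior arrays. Of 22 DNA replication genes none was called, and 2 were higher at an unadjusted p under 0.05, where 5.98% of all genes were. None was called with array weights, and the median was 0.19, or 0.07 without that array. The insertion sites of these transgenes are not given in the labels. Of 3 measured genes listed as transgene carriers or their neighbours, 1 was called lower. It was tsh, described above with the notum genes, at -1.04. The body colour gene y, often carried by transgenes as a marker, differed by 0.90 without a call (adjusted p = 0.125). The gene tio, beside which some VDRC dsRNA insertions are known to lie, was measured at 8.00, 8.42 and 7.53 against 7.52, 7.02 and 7.32 (log2 difference -0.69, adjusted p = 0.575).

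**Figure D5:**
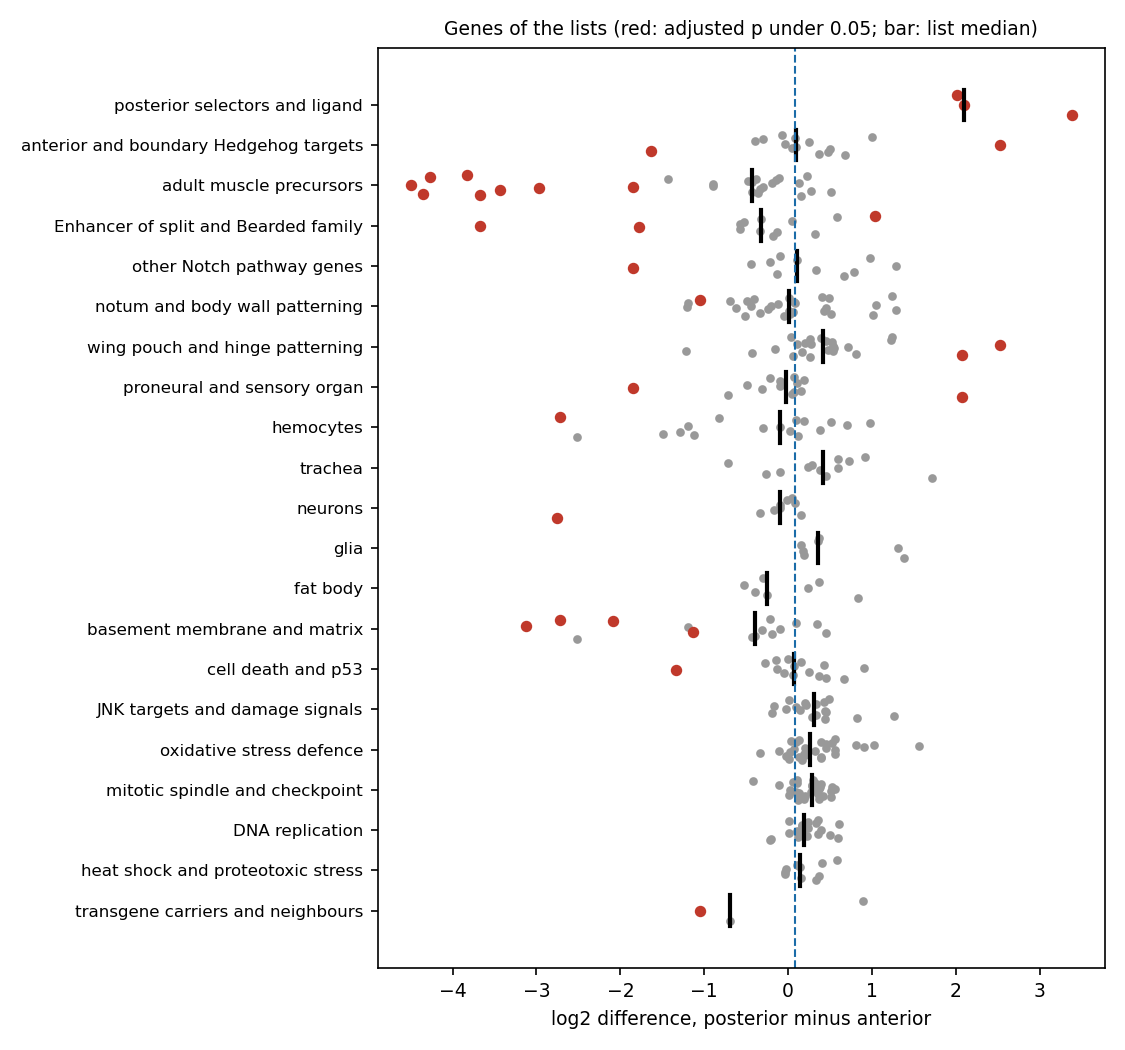
Log2 differences, posterior minus anterior, for the measured genes of each list other than the FGF list, with 1 point per gene, the list median as a bar and called genes in red. The dashed line is the median of all genes at 0.09. The muscle precursor list has a median of -0.43 and the matrix list one of -0.40, while the spindle, replication, oxidative stress and heat shock lists hold no called gene.

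Markers of other cells gave 1 called gene beyond the hemocyte list. Of 9 neuronal genes, the N-cadherin gene CadN was lower, at 9.31, 9.69 and 9.86 in anterior arrays and 6.23, 7.27 and 7.10 in posterior arrays (log2 difference -2.75, 6.73-fold, SE 0.28, adjusted p = 0.00129), and the call held with each array left out. The other neuronal genes differed by -0.33 to 0.16, with elav, the pan-neuronal marker, at 10.87, 10.91 and 10.72 against 10.91, 10.67 and 10.66. Of 12 tracheal genes none was called, 7 were higher at an unadjusted p under 0.05, 4 were called higher with array weights, and the median was 0.42. Over all genes, 5.98% were higher at that p and 1.63% with array weights. The same shares stand beside the glial and fat body counts below. Gasp, a chitin-binding protein gene, lay at 9.23, 8.16 and 7.44 against 10.03, 10.11 and 9.85 (log2 difference 1.72, adjusted p = 0.104). The tracheal FGF receptor gene btl, by contrast, differed by -0.10. Of 7 glial genes none was called, 2 were higher at an unadjusted p under 0.05 and 1 with array weights, and the glial selector gene repo was dim in all groups. Of 7 fat body genes none was called, 1 was higher at an unadjusted p under 0.05 and 1 with array weights.

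Of the 58 lower genes, 40 were in no list, and the choice of those named here was made with their values in view. The translation elongation factor gene eEF1alpha2, a second copy of the elongation factor 1 alpha gene, lay at 12.27, 12.59 and 12.20 in anterior arrays and 8.88, 9.28 and 9.18 in posterior arrays (9.45-fold lower, log2 -3.24, SE 0.21, adjusted p = 8.78e-05). The corepressor gene nvy lay at 8.82, 8.96 and 8.84 against 5.70, 6.12 and 6.22 (log2 difference -2.86, SE 0.18, adjusted p = 8.78e-05), with a posterior mean just low enough to be dim. The muscle actin gene Act87E lay at 8.91, 9.60 and 8.60 against 6.42, 6.67 and 6.94, a 5.13-fold difference, and at 8.67, 8.46 and 8.70 in delaminating arrays. Grip, a PDZ protein gene of muscle guidance, was 4.55-fold lower and kon, needed for muscle attachment, was 2.80-fold lower. The Beaten path gene beat-IIb differed by -2.81 and Con, which encodes the adhesion protein Connectin, by -1.62, both dim in posterior cells. Of these 7 genes the calls of eEF1alpha2, nvy, Act87E, Grip and beat-IIb held with each array left out, while kon was lost without anterior array 2 or posterior arrays 1 or 2, and Con held only without posterior array 2.

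Further lower genes had other roles. Hs6st, the heparan sulfate 6-O-sulfotransferase gene, lay at 10.39, 10.69 and 10.76 against 8.81, 9.23 and 9.32 (2.81-fold, adjusted p = 0.0249), and its call was lost without anterior arrays 2 or 3 or any of the posterior arrays. The gene pxb was 3.17-fold lower and was called with each array left out, but its other probe set differed by -0.30. Reck, whose mammalian counterpart inhibits matrix metalloproteinases, differed by -1.92 (adjusted p = 0.0449) and was dim in posterior cells. Its call held only without anterior array 1 or posterior array 3. The unnamed gene CG1572 stood apart in the delaminating cells. It lay at 10.39, 10.62 and 10.25 in anterior arrays, 8.83, 8.94 and 9.17 in posterior arrays and 11.00, 10.69 and 11.16 in delaminating arrays. Its adjusted p was 0.00693, and the call was lost without posterior arrays 1 or 2.

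Beyond the compartment and patterning genes, few genes were higher in posterior cells. Sara, which encodes an endosomal adaptor of BMP and TGF-beta receptors, lay at 9.34, 9.19 and 8.65 in anterior arrays and at 10.50, 10.73 and 10.65 in posterior arrays, 2.95-fold higher (log2 1.56, SE 0.20, adjusted p = 0.00629). It was called with each array left out, and delaminating arrays lay at 10.76, 10.89 and 10.69. Arc1, a retrotransposon-derived gene whose product forms capsids, was 2.11-fold higher, with its 2 probe sets at 1.08 and 1.53 (adjusted p = 0.0353). The chitinase gene Cht7 was 1.93-fold higher (adjusted p = 0.0398). CG43394 was 2.58-fold higher in 1 probe set (log2 1.36, adjusted p = 0.022), while its other probe set differed by 0.03. The gene dsx-c73A, dim in anterior cells, differed by 1.26 (adjusted p = 0.0353). These last 4 calls depended on single arrays, with dsx-c73A lost in each of the 9 fits without 1 array. Cht7 held only without anterior array 1 and Arc1 only without anterior arrays 1 or 3, while CG43394 was lost without anterior array 2 or any of the posterior arrays.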

How the data were processed

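The authors deposited log2 values made with RMA, per the submitters' processing notes; the RMA version is not given in the sources used here. Of 18952 probe sets, 183 controls were left out, and 13647 of the other 18769 carried 1 gene symbol. Symbols were updated through Entrez IDs to RefSeq (11893 of 11982 genes matched). Each gene was represented by its probe set of highest mean across the 9 arrays. The test was limma's (version 3.58.1, R 4.3.3), run with lmFit and eBayes, a mean per group over all 9 arrays and Benjamini-Hochberg adjustment over all genes. In simulated data for this contrast over 11982 genes, 34% of 100 genes planted at a log2 difference of 1 and 93% of 100 planted at 2 were recovered, with 4 false calls. The simulated noise was independent and normal, with the same spread for a gene on all 9 arrays. It held no array that stood apart as anterior array 3 did, so these rates may not hold for the real arrays. The number of arrays, 3 a group, limits the precision. Nothing in the labels says whether biological replicates were separate sorts, so p-values measure the spread between these arrays.

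The 22 gene lists, the members and the tests were chosen with earlier results of these data known. Any called gene could be named, together with the compartment checks, as many as 4 called genes from a list, or 3 of lowest p if it had no call, and any member of the compartment, muscle precursor and E(spl) lists. A few further uncalled members were named after their values were seen. The fit was repeated in 19 other ways, changing normalization, filtering, probe set choice, the model or the replicate block, or leaving out each array in turn. Promoter motifs, which were planned, were not analysed here. Figures were drawn with matplotlib 3.10.9.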

Additional observations from a re-analysis of the deposited data

Results flagged for a closer look

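Probe sets with no gene symbol, or with several, did not enter the comparison by gene. In a fit of all 18769 probe sets, 32 of these 5122 were called (0.625%), 6 of them higher and 26 lower in posterior than in anterior cells, where 129 of all probe sets were called (0.687%). Their differences ran from -4.20 to 2.14. They were singled out because this signal lies outside the genes reported on.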

How the results depend on the processing

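All 69 genes kept their direction under the alternatives run, and 32 were called in each of the 19 listed ones that tested the gene. Array weights called 427 genes, 195 higher and 232 lower, with 13 muscle precursor genes. Leaving out 1 array gave 35 to 88 genes, 5 to 31 higher and 30 to 73 lower, 1 to 2 lower E(spl) and Bearded genes and 1 to 5 lower matrix genes. With the 6 compared arrays alone, 7 genes were higher and 1 E(spl) gene was lower. An intensity trend with robust variances gave 26 higher genes and 4 lower E(spl) genes, and array weights also gave 4. Without anterior array 3 and posterior array 2, chosen after the data were seen, 6 genes were higher, and 1 E(spl) and 1 matrix gene were lower. The spindle gene fzy reversed with the mean of its probe sets, from 0.38 to -0.54. The cause was not tested for any of these. With the replicate number as a block 59 genes were called, 54 of them among the 69. Deviations of same-numbered anterior and posterior arrays correlated at -0.0043, 0.169 and 0.165. Anterior array 1 correlated best with posterior array 2, while anterior arrays 2 and 3 correlated best with the posterior array of their own number. The main fit did not take the numbers as pairs, and these values do not settle whether they are. Dim signal limits 19 of the lower genes, whose posterior mean lay below the lower quartile.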
